A study of Mus musculus with 14 samples.

Results

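Oog1, Oog2, Oog3, Oog4, Gm2042 and Pramel51 are genes of the PRAME-like family that mouse oocytes express. They were listed by name, and all 6 were found among the 20638 genes that carry a symbol in the count files, where 33 other genes of the family are also present. Oog1 to Oog4 and Pramel51 each have 1 RefSeq transcript in the files and Gm2042 has 2, of which the transcript with the highest mean count stands for the gene. The counts come from RNA-seq of full-grown oocytes with an intact germinal vesicle (GV), the nucleus of the meiotically arrested oocyte. In each of 4 groups, 3 libraries were sequenced (Ago2 fl/fl, Ago2 ADH, Dicer WT and Dicer KO), and 2 were labelled Ago2 null, 14 in all. Each library was made from 20 oocytes, pooled from 3 mice per the labels.

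Ago2 fl/fl females carry a floxed Ago2 gene and serve as the controls for both Ago2 mutants, and the study's breeding scheme lists them without Cre. Ago2 ADH females have 1 floxed allele, 1 knock-in allele whose catalytic motif reads ADH in place of DDH, and Cre under the Zp3 promoter, which acts in growing oocytes, so their oocytes retain the catalytically dead allele only. The Ago2 null females, from the same crosses, are Ago2 fl/fl with the Zp3-Cre transgene. Dicer KO oocytes lack Dicer through an oocyte-specific deletion, and Dicer WT oocytes are their controls. Females in all groups were 4 to 6 weeks old and had been given 5 IU of gonadotropin (eCG) for priming, 48 h ahead of oocyte collection. Their background was mostly C57BL6, from crosses of 3 transgenic lines of different strains. The study asked whether removing only the cleavage activity of AGO2 changes the oocyte transcriptome as removal of AGO2 or DICER does.

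PRAME-like proteins are built of leucine-rich repeats and are related to human PRAME, a tumor antigen that is normally confined largely to germ cells and that can act as the substrate-binding part of a ubiquitin ligase. The family has expanded in the mouse genome by tandem duplication, so that close copies lie side by side. Oog1, or oogenesin, was described as a protein of oocytes and early cleavage-stage embryos, and Oog2 to Oog4 were named for their likeness to it. DICER cuts double-stranded RNA into endogenous siRNAs and hairpins into microRNAs, and AGO2 is the Argonaute protein that cleaves the targets of siRNAs.

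The genes lie in 2 clusters of the GRCm38 (mm10) assembly. Oog1 (NM_178657, chr12:87602665-87608845), Gm2042 (NM_001270792, chr12:87954480-87960682) and Pramel51 (NM_001105254, chr12:88175589-88181894) are on chromosome 12. Oog4 (NM_173773, chr4:143437164-143450324), Oog3 (NM_201258, chr4:144157556-144162651) and Oog2 (NM_198661, chr4:144190717-144196934) are on chromosome 4. Over the aligned bases the Oog1 transcript was 99.8% identical to that of Gm2042, with 3 mismatches, and 99.1% identical to that of Pramel51, with 16 mismatches. Its identity to the chromosome 4 members was 79.2% for Oog2, 80.5% for Oog3 and 80.2% for Oog4. A stretch of 90 coding bases from the last exon shows the closeness of the 3 copies on chromosome 12 and the distance of the other members. It is given from the GENCODE transcripts paired with these RefSeq IDs, 5′ to 3′ on the coding strand, and capitals mark bases that differ from Oog1. The stretches lie at chr12:87608360-87608449 (plus strand) for Oog1, chr12:87960191-87960280 (plus) for Gm2042, chr12:88175991-88176080 (minus) for Pramel51, chr4:144196374-144196463 (plus) for Oog2, chr4:144157990-144158079 (minus) for Oog3 and chr4:143437585-143437674 (minus) for Oog4.
Oog1: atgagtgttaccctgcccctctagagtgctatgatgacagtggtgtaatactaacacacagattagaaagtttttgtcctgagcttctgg
Gm2042: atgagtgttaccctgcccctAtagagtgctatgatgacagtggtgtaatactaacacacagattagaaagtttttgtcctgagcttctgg
Pramel51: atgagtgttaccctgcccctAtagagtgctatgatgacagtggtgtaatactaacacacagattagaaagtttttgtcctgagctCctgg
Oog2: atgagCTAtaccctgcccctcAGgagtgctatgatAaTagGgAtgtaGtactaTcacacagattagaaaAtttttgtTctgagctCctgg
Oog3: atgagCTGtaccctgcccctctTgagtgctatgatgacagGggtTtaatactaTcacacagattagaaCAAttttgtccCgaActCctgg
Oog4: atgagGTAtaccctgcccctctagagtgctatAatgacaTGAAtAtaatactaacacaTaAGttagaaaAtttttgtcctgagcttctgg
Gm2042 differed from Oog1 at 1 and Pramel51 at 2 of these bases, and Oog2, Oog3 and Oog4 at 14, 13 and 13.

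The share of each transcript that a short read can assign was counted as the windows of 50 bases, on either strand, that are found in no other gene of the GENCODE transcripts. These were 3.25% of the windows of Oog1, 2.76% of Gm2042 and 30.3% of Pramel51, against 54.8% of Oog2, 80.3% of Oog3 and 99.3% of Oog4. Of the 50-base windows of Oog1, 94.8% are also in Gm2042, 62.3% in Pramel51, 20.5% in Pramel25 and 18.7% in Pramel29. Oog2 shares 40.7% of its windows with Pramel26, and Oog3 shares 18.9% with Gm4350. With windows of 36 bases, the other read length that the study's methods name, the shares were lower for every member, from 1.99% for Gm2042 to 97.7% for Oog4. Oog4 thus has the largest share of sequence of its own among the 6, and Oog1 and Gm2042 the smallest.

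**Figure D1:**
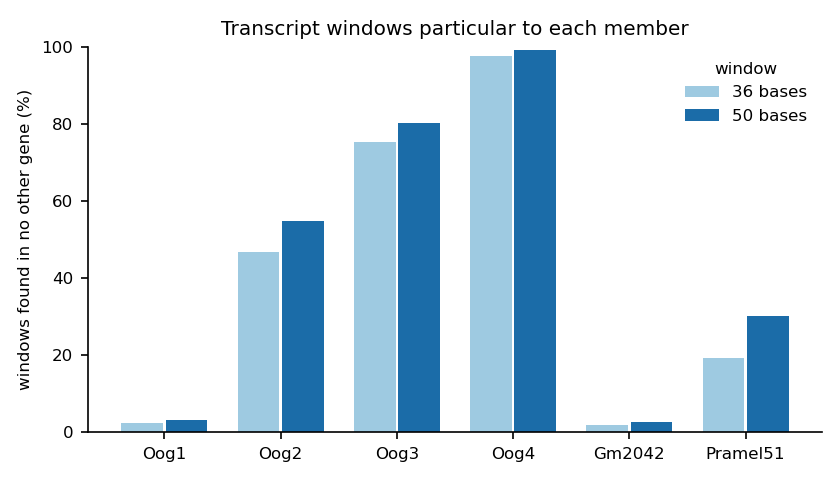
Percentage of transcript windows of 36 (light bars) and 50 bases (dark bars) that occur in no other gene, for each member. Oog1 and Gm2042 lie below 4% at either length and Oog4 above 97%.

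The 250 bases before the annotated start were given for 5 members by RefSeq (GRCm38.p6), and are shown because Oog1 and Gm2042 are all but identical there and because Oog3 and Oog4 moved in opposite directions. They are written on the gene's own strand. In Oog1 (chr12:87602415-87602664, plus) and Gm2042 (chr12:87954230-87954479, plus) the capital marks the single base at which these 2 differ. In Oog3 (chr4:144162652-144162901, minus) and Oog4 (chr4:143450325-143450574, minus) capitals mark the letters TAATTG on either strand, the element bound by the oocyte homeobox protein NOBOX.
Oog1: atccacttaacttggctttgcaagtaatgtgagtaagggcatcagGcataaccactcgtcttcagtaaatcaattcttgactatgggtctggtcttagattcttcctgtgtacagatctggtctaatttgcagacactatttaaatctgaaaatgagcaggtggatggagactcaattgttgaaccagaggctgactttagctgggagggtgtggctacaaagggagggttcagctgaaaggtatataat
Gm2042: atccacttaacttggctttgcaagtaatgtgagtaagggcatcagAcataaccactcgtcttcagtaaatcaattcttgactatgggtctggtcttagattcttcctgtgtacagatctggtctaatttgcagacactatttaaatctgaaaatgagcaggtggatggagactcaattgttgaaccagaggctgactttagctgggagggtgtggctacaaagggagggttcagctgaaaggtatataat
Oog3: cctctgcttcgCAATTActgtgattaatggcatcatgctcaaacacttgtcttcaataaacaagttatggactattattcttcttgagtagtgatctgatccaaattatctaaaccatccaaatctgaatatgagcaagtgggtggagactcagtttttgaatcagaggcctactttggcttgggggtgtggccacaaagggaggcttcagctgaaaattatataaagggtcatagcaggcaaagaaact
Oog4: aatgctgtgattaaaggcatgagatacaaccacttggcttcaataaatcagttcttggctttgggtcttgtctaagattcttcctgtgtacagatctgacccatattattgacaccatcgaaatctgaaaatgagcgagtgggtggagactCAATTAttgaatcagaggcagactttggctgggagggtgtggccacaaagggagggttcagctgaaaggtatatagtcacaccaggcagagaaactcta
The Oog3 and Oog4 sequences were 82.8% identical over aligned bases. TAATTG was found 1 time each in Oog3 and Oog4 and not in the windows of Oog1, Gm2042 or Oog2, and 7.17% of all 32851 promoter windows of that length hold it. The E-box letters CANNTG occurred 2 to 4 times in each of the 5 and in 66.2% of all promoters, and TATAAA occurred 1 time each in Oog2 and Oog3, against 12.4% of all promoters. Both strands were searched and no match overlapped a match to another motif.

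The libraries held 29380403 to 58285057 counts on transcripts, and 3 counts, taken as the detection floor, correspond to 0.0515 to 0.102 CPM, the count scaled to library size. Counting intervals of this kind cover counting error only, since amplified reads are not independent molecules. All 12 oocyte markers were present in every group, with a summed level of 12710 to 19560 CPM. The 4 blood and endothelium markers summed to 32.2 to 44.0 CPM, nearly all of it from Pecam1. Hba-a1, Ptprc and Cdh5 were at no more than 0.0747 CPM in any library. The sum of 16 granulosa and cumulus cell markers, of which 0 to 3 were at 0 in a group, was 75.1 to 82.2 CPM in Ago2 fl/fl, 68.4 to 73.4 CPM in Ago2 ADH, 56.1 to 62.6 CPM in Ago2 null, 94.0 to 103 CPM in Dicer WT and 79.6 to 83.6 CPM in Dicer KO, and the part of such cells in the members' values was not tested. Cyp19a1 and Nr5a2 made up most of that sum, at 30.7 to 36.3 and 33.6 to 41.0 CPM in Ago2 fl/fl. The markers did not all move one way: in Ago2 ADH, Cyp19a1 was called lower (log2 fold change -0.50) while Hsd3b1 (4.27-fold) and Cyp11a1 (3.32-fold) were called higher, 2 of 10 tested markers going each way, with a median log2 fold change of 0.37. In Ago2 null the median was -0.46, with 0 higher and 1 lower of 12, and in Dicer KO -0.19, with 0 higher and 3 lower of 9. Ago2 was at 24.1 to 25.6 CPM in Ago2 fl/fl, 12.4 to 13.8 CPM in Ago2 ADH and 5.27 to 7.18 CPM in Ago2 null libraries. Dicer1 was at 745 to 779 CPM in Dicer WT and 1669 to 1928 CPM in Dicer KO libraries, a count over the whole transcript that does not separate the deleted part and so does not check the label. Reads with several alignments, tallied apart from the transcripts, equalled 33.2 to 34.6% of the counts and tallies together in Ago2 fl/fl, 57.3 to 58.1% in Ago2 ADH, 57.0 to 58.3% in Ago2 null, 25.6 to 31.5% in Dicer WT and 44.4 to 49.5% in Dicer KO. That share moved with genotype in both sets, and its part in the values of the near-identical members was not tested. Oog1 and Gm2042, with 3.25% and 2.76% of 50-base windows of their own, still held near-identical counts on transcripts. The tally may thus not hold every read that fits both, and how such reads were counted cannot be settled from these data.

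Oog4 was the member that rose, and it rose in all 3 mutants, while Oog2 and Oog3 fell in all 3. Oog1, Gm2042 and Pramel51 fell in some mutants and did not pass the test in others. In Ago2 ADH against Ago2 fl/fl, 1 member was called higher and 5 lower at a false discovery rate (FDR) of 1%, where 21.0% of all genes tested were called higher and 19.9% lower. In Ago2 null against the same control libraries, 1 was called higher and 3 lower, against 18.6% and 18.7% of all genes. In Dicer KO against Dicer WT, 1 was called higher and 4 lower, against 16.9% and 17.6% of all genes. The members' median log2 fold change was -0.39, -0.13 and -0.35 in these comparisons, and that of all genes tested was 0.01, 0.01 and 0.00. Oog1 and Gm2042 have near-identical counts and are 1 observation, yet each is counted in these numbers of calls and medians. The medians in Ago2 ADH and Dicer KO are the values of this pair. All 6 members passed the filter on low counts in every comparison. In bulk libraries of pooled oocytes, fewer oocytes holding a transcript and less of it in each oocyte cannot be told apart. The libraries of a group came from separate collections per the study's methods, and the p-values measure the spread between these. The lanes recorded with the deposited counts give each Ago2 genotype 1 lane of its own. Lane and genotype thus cannot be told apart in any comparison within the Ago2 set. In the Dicer set the lane numbers were 1, 2 and 3 for WT and 5, 6 and 7 for KO, so that no lane number held both genotypes.

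**Figure D2:**
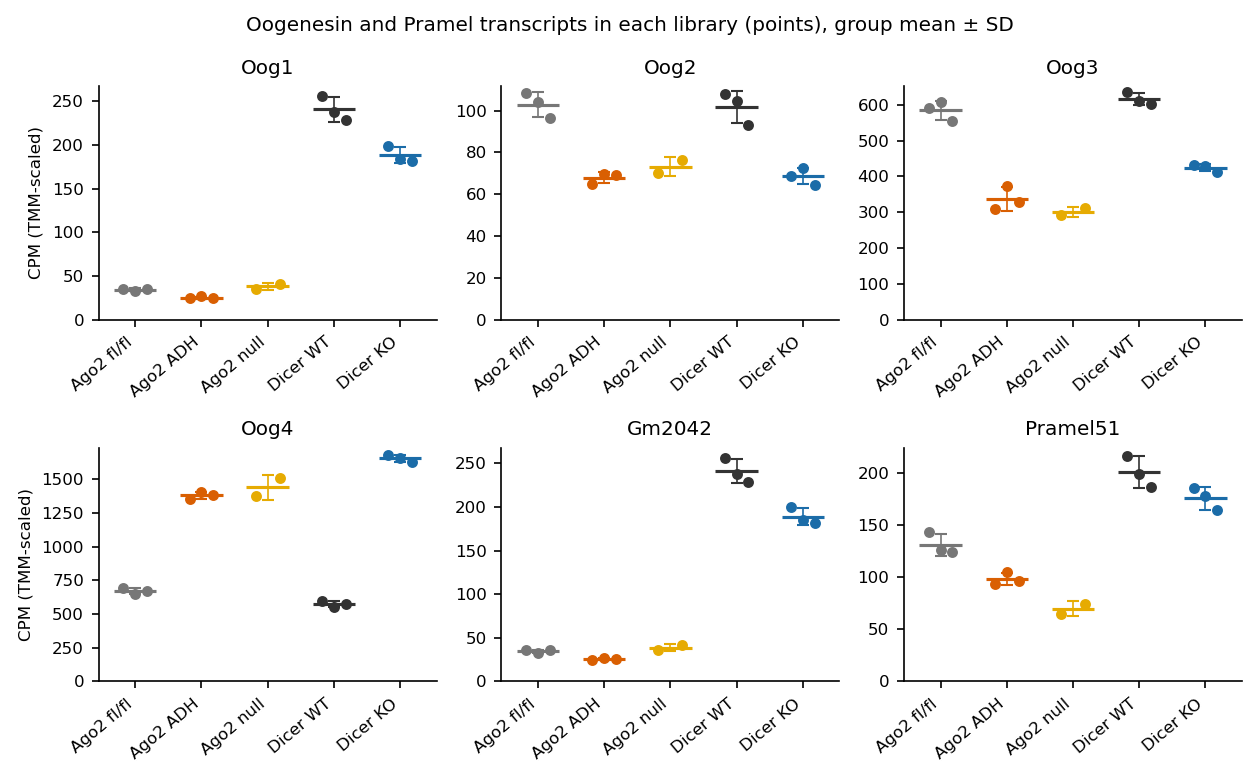
Level of each member in CPM (scaled by TMM over the 14 libraries, linear axes from 0) in the 5 groups. Points are libraries, horizontal lines group means and error bars the SD; Oog4 is above its controls in every mutant library, and Oog1 and Gm2042 are 6.93 and 6.95 times higher in Dicer WT than in Ago2 fl/fl.

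Oog4, the member farthest from the others in the direction of its change, was measured at 689.7, 649.8 and 669.6 CPM in the Ago2 fl/fl libraries. It reached 1349.7, 1406 and 1382 CPM in Ago2 ADH and 1373 and 1505 CPM in Ago2 null. In the Dicer set it was at 596, 551 and 577 CPM in WT and 1677, 1655 and 1629 CPM in KO libraries. The lowest mutant library of either set was above the highest control library, and the groups did not overlap. The log2 fold change was 1.09 ± 0.04 (SE) in Ago2 ADH, or 2.13-fold (adjusted p = 9.32e-14), 1.14 ± 0.05 in Ago2 null (adjusted p = 3.03e-11) and 1.53 ± 0.06 in Dicer KO, or 2.89-fold (adjusted p = 1.14e-13). Among 20241 genes ranked by level per kilobase of transcript, Oog4 stood at 126 in Ago2 fl/fl, 44 in Ago2 ADH and 43 in Ago2 null, and at 124 in Dicer WT and 24 in Dicer KO.

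Oog3, a neighbor of Oog2 on chromosome 4, was the most abundant member beside Oog4 and fell in every mutant. Its levels were 591, 608 and 556 CPM in Ago2 fl/fl, 310.0, 374 and 328 CPM in Ago2 ADH and 291 and 311 CPM in Ago2 null. The Dicer WT libraries were at 635, 609.8 and 602 CPM and the Dicer KO libraries at 433, 428 and 413 CPM. All mutant libraries lay below all control libraries of their set. The log2 fold change was -0.75 ± 0.06 in Ago2 ADH (adjusted p = 2.77e-09), -0.92 ± 0.06 in Ago2 null (adjusted p = 1.80e-09) and -0.53 ± 0.06 in Dicer KO (adjusted p = 3.41e-07).

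Oog2 fell to a similar level in each mutant. It was at 108, 104 and 96.5 CPM in Ago2 fl/fl, 65.0, 69.8 and 69.1 CPM in Ago2 ADH, and 69.9 and 76.3 CPM in Ago2 null. In the Dicer set the values were 108, 105 and 93.2 CPM in WT and 68.7, 72.4 and 64.6 CPM in KO libraries, with no overlap between the groups. The log2 fold change was -0.55 ± 0.06 in Ago2 ADH (adjusted p = 2.33e-07), -0.45 ± 0.07 in Ago2 null (adjusted p = 5.37e-05) and -0.57 ± 0.07 in Dicer KO (adjusted p = 4.53e-06). Oog2 shares much of its sequence with Pramel26, which was also called lower in each mutant, by 0.36, 0.27 and 0.27 on the log2 scale.

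Oog1 and Gm2042 had the same counts to within 0.365% in every library, with a difference of 0 to 36 counts, so the values of either cannot be read as those of a single gene. Oog1 was at 35.4, 32.9 and 35.6 CPM in Ago2 fl/fl, 24.5, 26.9 and 25.3 CPM in Ago2 ADH, and 35.8 and 41.5 CPM in Ago2 null. In the Dicer set it was at 255, 237 and 228 CPM in WT and 199, 184 and 182 CPM in KO libraries. Each Ago2 ADH library was below each control library, both Ago2 null libraries were above all of them, and the Dicer KO libraries were below the Dicer WT libraries. The log2 fold change was -0.39 ± 0.07 in Ago2 ADH for Oog1 (adjusted p = 0.000216) as for Gm2042 (adjusted p = 0.000219). In Dicer KO it was -0.35 ± 0.06 for both Oog1 (adjusted p = 0.000194) and Gm2042 (adjusted p = 0.000193). In Ago2 null neither passed the threshold, with 0.20 ± 0.08 for Oog1 (adjusted p = 0.0626) and for Gm2042 (adjusted p = 0.0643).

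The level of this pair also differed between the control groups of the 2 sets. The mean was 240 CPM in Dicer WT and 34.6 CPM in Ago2 fl/fl for Oog1, a ratio of 6.93, and 6.95 for Gm2042. The same ratio was 1.53 for Pramel51, 1.05 for Oog3, 0.99 for Oog2 and 0.858 for Oog4, and it ran from 0.798 to 1.60 over the 12 other PRAME-family genes described further on. This was not tested, because the sets come from different crosses and separate series of libraries, possibly with reads of different length, which cannot be told apart.

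The second transcript of Gm2042 (NM_001270793, 1059 bases against 1894, all of them also in the longer one) was counted at 64.1 to 84.8% of the longer transcript in Ago2 fl/fl. The share was 59.5 to 64.7% in Ago2 ADH and 56.1 to 56.4% in Ago2 null, but 0.208 to 0.335% in Dicer WT and 0.211 to 0.259% in Dicer KO libraries. In counts, the short transcript had 653 to 1741 in the Ago2 set and 11 to 32 in the Dicer set, although the longer transcript had more counts there. The short transcript was called lower in Ago2 ADH, by 0.68 ± 0.10 on the log2 scale (adjusted p = 1.53e-05), and was not called in Ago2 null or Dicer KO. In Ago2 null its log2 fold change was -0.23 ± 0.11 (adjusted p = 0.102), opposite in sign to the 0.20 ± 0.08 of the longer transcript, also not called. Between Ago2 ADH and Ago2 null it was lower in Ago2 ADH by 0.47 ± 0.11 and not called (adjusted p = 0.101).

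**Figure D3:**
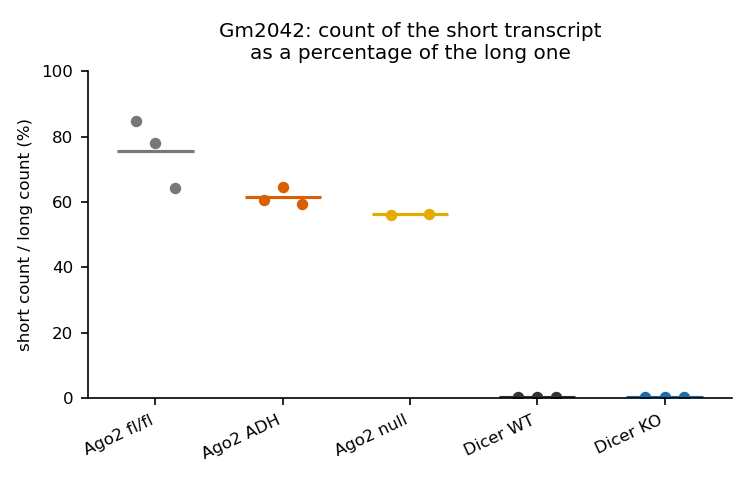
Count of the short Gm2042 transcript as a percentage of the count of the long one (linear axis) in each library (points), with group means as lines. The 8 libraries of the Ago2 set lie between 56.1 and 84.8% and the 6 of the Dicer set below 1%.

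Pramel51, formerly Gm10436, is the third copy on chromosome 12, and its values did not follow those of Oog1 in Ago2 null. It was at 143, 126 and 124 CPM in Ago2 fl/fl, 93.2, 105 and 96.3 CPM in Ago2 ADH, and 64.9 and 74.6 CPM in Ago2 null. In the Dicer set it was at 216, 199 and 186 CPM in WT and 185, 177 and 164 CPM in KO libraries. The 3 Ago2 groups did not overlap, and in the Dicer set the lowest WT library (186 CPM) was just above the highest KO library (185 CPM). The log2 fold change was -0.37 ± 0.06 in Ago2 ADH (adjusted p = 4.81e-05) and -0.87 ± 0.08 in Ago2 null (adjusted p = 1.11e-07). In Dicer KO it was -0.19 ± 0.07 and did not pass the 1% threshold (adjusted p = 0.0320).

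**Figure D4:**
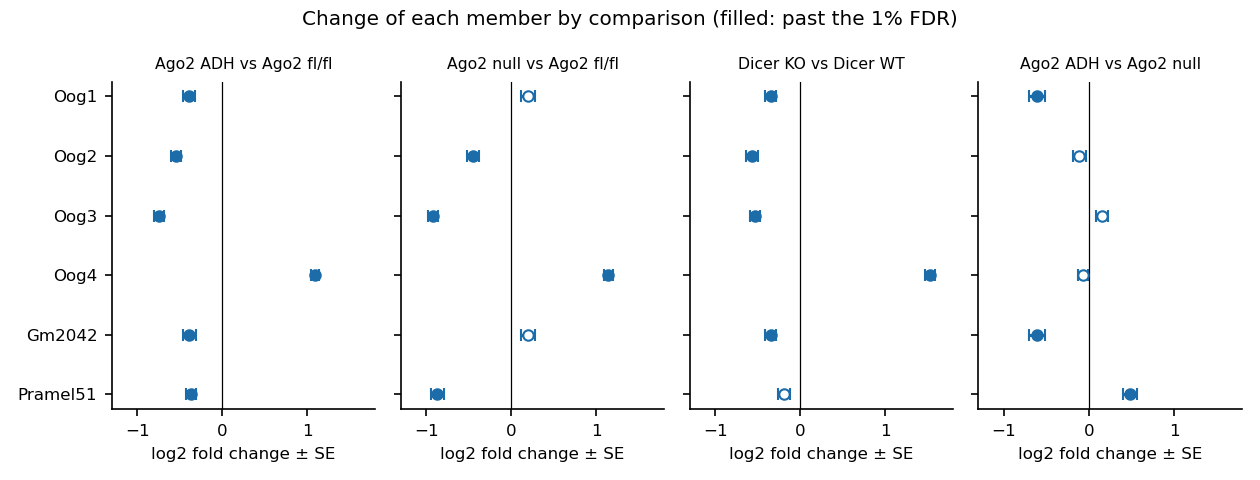
Log2 fold change of each member with its SE (horizontal bars) in the 4 comparisons between groups; filled points pass the 1% FDR and open points do not. Oog4 lies above 1 in each mutant, and in the panel of Ago2 ADH against Ago2 null only Oog1, Gm2042 and Pramel51 are filled.

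By genotype, Ago2 ADH oocytes retain a catalytically dead Ago2 allele and Ago2 null oocytes have only deleted floxed alleles. AGO2 protein was not measured in these data. Between these groups, 3 members were called. Oog1 and Gm2042 were lower in Ago2 ADH, each by 0.61 ± 0.09 on the log2 scale (adjusted p = 0.00515), and Pramel51 was higher by 0.48 ± 0.08 (adjusted p = 0.00909). That is 1 member called higher and 2 lower, in a comparison where 0.0696% of all genes were called higher and 0.0487% lower. The 2 lower members have near-identical counts and are 1 observation. The difference was -0.12 ± 0.08 for Oog2 (adjusted p = 0.641), 0.15 ± 0.07 for Oog3 (adjusted p = 0.492) and -0.07 ± 0.06 for Oog4 (adjusted p = 0.730). The study also lists these 3 genes as differing here, so the calls are no independent evidence. The call of Oog1 was lost without Ago2 ADH 1 (adjusted p = 0.0578), Ago2 ADH 3 (0.0238), Ago2 null 1 (0.0114) or Ago2 null 2 (0.324), as was that of Gm2042, and that of Pramel51 was lost without any 1 of the 5 libraries (adjusted p = 0.0198 to 0.0811). They were also lost when the transcripts of each gene were summed, at an adjusted p of 0.0354 for Oog1 and for Gm2042 and 0.0391 for Pramel51.

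Whether the members responded alike to loss of AGO2 function and of DICER was asked by testing the difference of the effects, which come from sets with no library in common. For the Ago2 ADH effect minus the Dicer KO effect, no member was called higher and 1 lower, where 1.30% of all genes were called higher and 2.44% lower. That member was Oog4, which rose less in Ago2 ADH than in Dicer KO, by 0.49 ± 0.07 on the log2 scale (adjusted p = 4.06e-05). The fall of Oog3 was 0.27 ± 0.08 deeper in Ago2 ADH and was not called (adjusted p = 0.0502), although it was without Ago2 ADH 2 (adjusted p = 0.00635). For the remaining members the difference ran from -0.23 for Pramel51 to -0.04 for Oog2.

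For Ago2 null, 2 members were called higher and 3 lower relative to the Dicer KO effect, where 1.07% of all genes were called higher and 2.02% lower. Oog1 and Gm2042, which are 1 observation by their near-identical counts, were relatively higher, each by 0.51 ± 0.10 (adjusted p = 0.00299 and 0.00304). Their level was 6.93 and 6.95 times higher in Dicer WT than in Ago2 fl/fl. The short Gm2042 transcript averaged 75.6% of the long one in Ago2 fl/fl and 0.275% in Dicer WT. The pair may thus not be counted alike in the sets, and the part of this in the call was not tested. Pramel51 was relatively lower by 0.71 ± 0.11 (adjusted p = 0.000311), Oog3 by 0.42 ± 0.08 (adjusted p = 0.00226) and Oog4 by 0.42 ± 0.08 (adjusted p = 0.00204), while Oog2 differed by 0.08 ± 0.11 (adjusted p = 0.713). Pramel51 was called whichever library was left out, with an adjusted p of up to 0.00449 over all alternatives. Oog1 was not called without Ago2 fl/fl 2 (adjusted p = 0.0141), Ago2 null 2 (0.0467), Dicer WT 1 (0.0114) or Dicer KO 2 (0.0114), and Gm2042 behaved likewise. Oog3 was not called without Ago2 fl/fl 2 (0.0181), Ago2 null 1 (0.0185) or Dicer WT 2 (0.0106), nor Oog4 without Ago2 null 1 (0.0187) or Dicer WT 2 (0.0117).

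Levels were compared between genes per kilobase of transcript. In Ago2 fl/fl the order was Oog4 (338 ± 10.1 CPM per kb, SD), Oog3 (314 ± 14.2), Pramel51 (69.5 ± 5.46), Oog2 (53.7 ± 3.08), Oog1 (19.2 ± 0.852) and Gm2042 (18.3 ± 0.805), and it was the same in Ago2 ADH. In Ago2 null, Pramel51 (37.0 ± 3.65) and Oog2 (38.1 ± 2.36) changed places with overlapping libraries. In Dicer WT, Oog3 (330.1 ± 9.07) stood above Oog4 (290.1 ± 11.4), followed by Oog1 (133 ± 7.73), Gm2042 (127 ± 7.43), Pramel51 (106 ± 7.97) and Oog2 (53.1 ± 3.98). In Dicer KO, Oog4 (835 ± 11.98) was first and Oog3 (228 ± 5.71) second, with the others in the WT order, and Gm2042 and Pramel51 overlapped. Oog1 and Gm2042 overlapped in every group, and no other neighbors in these orders did.

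Other genes of the family whose symbol or synonym reads Prame, Pramel or Oog were described beside the members. Of the 33, 23 passed the filter on low counts in each mutant comparison, and 6 were called higher and 9 lower in each of them, which is to be read against the 21.0% and 19.9% of all genes called in Ago2 ADH, 18.6% and 18.7% in Ago2 null, and 16.9% and 17.6% in Dicer KO. Of all 33, 14 were called in all 3 mutants in the same direction, 9 lower and 5 higher. The 9 that fell had a mean level of at least 28.995 CPM over all libraries, and the 5 that rose had at most 7.93 CPM, so that Oog4 was the only gene of the family above that level, members included, called higher in a mutant. The family list had a median log2 fold change of -0.23, -0.04 and -0.27 in Ago2 ADH, Ago2 null and Dicer KO. None of its genes was called between Ago2 ADH and Ago2 null or in the tests of the difference of effects.

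Pramel48, on chromosome 5, had the largest fall, with 43.2, 38.1 and 38.6 CPM in Ago2 fl/fl, 18.2, 18.1 and 19.5 CPM in Ago2 ADH, and 16.8 and 17.4 CPM in Ago2 null. Its log2 fold change was -1.06, -1.19 and -1.50 in Ago2 ADH, Ago2 null and Dicer KO. Pramel34, the most abundant of the 33, was lower by 0.57, 0.51 and 0.43 on the log2 scale. Pramel32 fell by 0.47, 0.38 and 0.40, Pramel29 by 0.41, 0.33 and 0.47, and Pramel25 by 0.44, 0.26 and 0.46. Pramel47 fell by 0.55, 0.65 and 0.55, Pramel27 by 0.47, 0.35 and 0.25, and Pramel15 by 0.23, 0.25 and 0.40.

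Pramel17 was the most abundant of those that rose, at 2.81 to 3.23 CPM in Ago2 fl/fl, 7.16 to 9.81 CPM in Ago2 ADH and 9.14 to 10.96 CPM in Ago2 null. Its log2 fold change was 1.46, 1.74 and 1.87 in the 3 mutants, that of Pramel19 was 0.92, 1.18 and 1.97, and that of Pramel14 was 0.95, 1.04 and 1.69. Pramel20 and Pramel31 were also called higher in each mutant, Pramel16 in both Ago2 mutants and Pramel5 in Dicer KO. Pramel31 had 0 to 8 counts in the control libraries and 29 to 135 in the mutant libraries, and such genes passed the filter through the group in which they are high. Of the abundant genes of the family, Pramel13 (571 to 656 CPM over all libraries) was not called in any mutant, and neither was Pramel12.

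**Figure D5:**
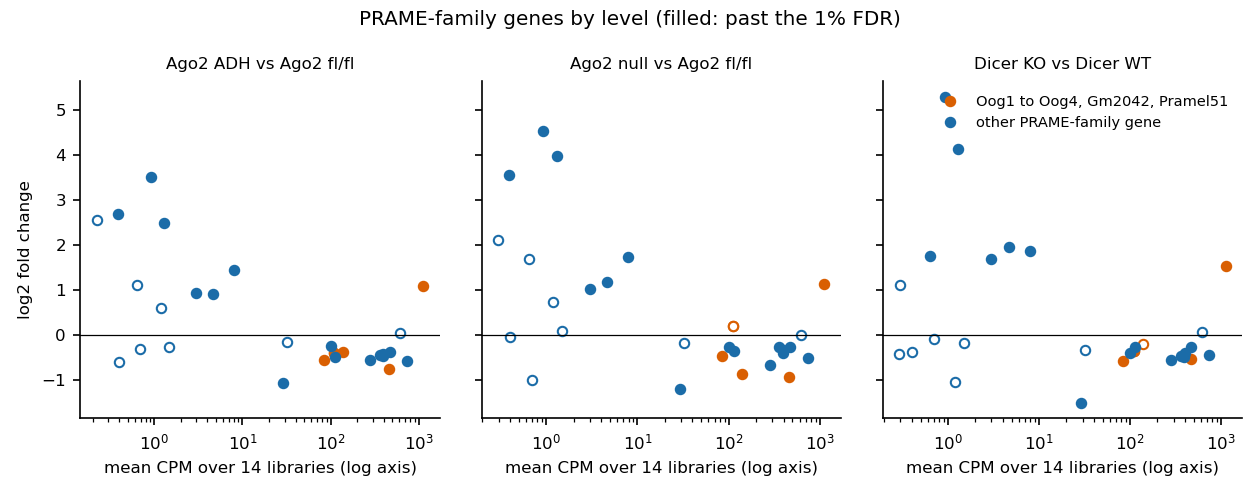
Log2 fold change of the PRAME-family genes in each mutant against their mean level in CPM over the 14 libraries (log axis), with the 6 members in orange and other genes in blue; filled points pass the 1% FDR. Genes above 20 CPM lie at or below 0 or near it, except Oog4 above 1, and the genes that rose lie below 10 CPM.

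The oocyte also expresses other gene families that arose by tandem duplication. Of 11 oocyte Nlrp genes, which encode NLR proteins of the maternal store, 3 were called higher and 6 lower in Ago2 ADH, 2 and 7 in Ago2 null, and 1 and 8 in Dicer KO. Nlrp4b fell most, by 0.46, 0.55 and 0.60 on the log2 scale, and Nlrp4c rose by 0.54 in Ago2 ADH and 0.66 in Ago2 null, while the largest rise in Dicer KO was 0.35 for Nlrp4e. Of 13 oocyte Fbxw cluster genes, which encode F-box proteins, none was called higher and 7 lower in Ago2 ADH, none and 4 in Ago2 null, and 3 and 3 in Dicer KO. Among all genes tested, 16.9 to 21.0% were called higher and 17.6 to 19.9% lower in these comparisons. Fbxw16 fell by 0.78, 0.85 and 1.06, and Fbxw28 rose by 0.32 in Dicer KO. These lists are named for their genes only, and the differences between families were not tested.

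Genes near the members on the chromosome were counted for position. The 22 neighbors, up to 5 on each side of a member, are genes whose symbol or synonym did not place them in the family list. Genes of the family under other names were not looked for. Among the neighbors, 5 were called higher and 2 lower of 17 tested in Ago2 ADH, 9 and 2 of 18 in Ago2 null, and 5 and 1 of 15 in Dicer KO. The shares of all genes were again 16.9 to 21.0% higher and 17.6 to 19.9% lower. Several neighbors called higher were low in the controls, such as BB287469 and Gm4027 at 0.149 and 0.119 CPM on average in Ago2 fl/fl. Genes this low can pass the filter on low counts through the group in which they are high. Their numbers are therefore not directly comparable with these shares. Gm13040, Gm13043 and Gm13057, all called higher in Ago2 null, had equal or nearly equal values in every library. They are not separate observations, and averaged 0.223 to 0.228 CPM in Ago2 fl/fl. Snw1, a splicing and transcription cofactor, fell by 0.49 in Ago2 ADH and 0.60 in Dicer KO, and Prdm2 fell by 0.49 in Ago2 null. The largest rises were those of BB287469, Gm4027 and Gm2022, which were at or below 0.282 CPM on average in the controls. BB287469 and Gm4027 had equal values in every Dicer library and may not be separate observations either.

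The genes whose pattern was most like that of each member were taken from 11638 genes outside the family list with a mean of at least 1 CPM. Likeness was Pearson's r of log2(CPM + 0.5) after subtraction of the control mean of each set. The points are the 14 libraries, which share their controls, and the coefficients are descriptions. Oog4 was most like Dynll1 (r = 0.998), C130026I21Rik (0.997) and Vars2 (0.997). For Oog3 they were Bhlhe41 (0.988), Rbpms2 (0.988) and Nin (0.980), and for Oog2 Tmem41b (0.988), Lratd2 (0.982) and Pla2g4d (0.979). Pramel51 was most like Nt5dc1 (0.949), Bod1l (0.943) and B4galt6 (0.939). Oog1 and Gm2042 had the same 3 genes, Nup35 (0.896 for Oog1), Clta (0.895) and Nudcd2 (0.869).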

How the data were processed

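RNA-seq counts of 14 libraries were analysed, grouped by the genotype in their labels. The deposited values are raw read counts for each RefSeq transcript and were not normalized by the authors. Per the methods and the submitters' processing notes, the authors amplified cDNA from lysed oocytes, aligned paired-end reads to mm10 and its refGene transcripts with TopHat2 (2.0.7 in the processing notes, where the methods name an earlier version), keeping reads with several alignments, and counted with HTSeq 0.6.1 in intersection-strict mode without regard to strand. Alignment settings were stated for reads of 36 and 50 bases without saying which libraries had which. Near-identical copies cannot be counted apart with certainty. Tallies of reads outside the transcripts or with several alignments equalled 34.0 to 65.0% of all entries and were left out of library sizes and tests.

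Transcript IDs were matched to symbols by RefSeq (26081) and GENCODE vM21 (113), and 301 stayed without one. A comparison used the libraries of the groups compared and edgeR 4.0.16 (R 4.3.3): filterByExpr with a minimum count of 10 and total of 15, TMM, the quasi-likelihood test, and Benjamini-Hochberg adjustment over all transcripts tested at an FDR of 1%. Shares of genes called use 1 transcript per gene. The SE is the absolute log2 fold change divided by the square root of F. CPM values were TMM-scaled over all libraries. The fits were tested on simulated data. Alternatives were DESeq2 1.42.0, RLE size factors, other filters, an FDR of 5%, all groups in 1 fit, summed transcripts or copies, a replicate block and leaving out each library. No library pair held the same counts. Sequences were aligned with Biopython 1.88.

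The text names the 6 members, the other PRAME-family genes called at an FDR of 1% in at least 1 pairwise comparison (at most 12, by mean CPM), the 3 genes most like each member, Ago2 and Dicer1, and the largest rise and fall of the other lists. Pramel5, Pramel12, Pramel13, Pramel16, Pramel20 and Pramel31 were named after their values were seen. The members and lists were chosen with earlier results of these data known.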

Additional observations from a re-analysis of the deposited data

Results flagged for a closer look

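The effects of Ago2 and Dicer mutation, measured in separate sets of libraries, differed by edgeR's quasi-likelihood test of the difference itself for 6 of the 12 values computed for the members. For the Ago2 ADH effect minus the Dicer KO effect this was Oog4, with a difference of -0.49 on the log2 scale. Of all genes tested, 1.30% were called higher and 2.44% lower in that test. For the Ago2 null effect minus the Dicer KO effect these were Oog1 (0.51), Gm2042 (0.51), Oog3 (-0.42), Oog4 (-0.42) and Pramel51 (-0.71). There, 1.07% of all genes were called higher and 2.02% lower. The sets also come from different crosses and separate series of libraries, which cannot be told apart from the allele. In the second group the calls of Oog1, Gm2042, Oog3 and Oog4 were lost when certain single libraries were left out, and that of Pramel51 was kept under every alternative run. Oog1 and Gm2042 have near-identical counts and are 1 observation rather than separate ones. Their level was also 6.93 and 6.95 times higher in Dicer WT than in Ago2 fl/fl, and the part of this in their calls was not tested.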

How the results depend on the processing

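Of the members' values recomputed under other settings, 552 kept their direction and their side of the threshold, 33 no longer passed it, 2 newly passed it and 3 changed sign. No member's call or direction changed in Ago2 ADH or Ago2 null against Ago2 fl/fl, and in Dicer KO against Dicer WT 1 did, Pramel51, which passed an FDR of 5% (adjusted p = 0.0320). Between Ago2 ADH and Ago2 null, 3 members were called, but 0 to 2 when 1 library was left out and 0 when transcripts were summed per gene. For the Ago2 ADH effect minus that of Dicer KO, 1 was called, and 1 to 2 with 1 library left out, where the value of Oog2, called in none, changed sign (-0.0803 to 0.0236). For the Ago2 null effect minus that of Dicer KO, 5 were called, but 2 to 5 with 1 library left out and 1 with the replicate number as a block (Pramel51 stayed). The replicate numbers did not pair the libraries: the deviations of same-numbered libraries correlated at -0.17 to 0.07, and 3 of 6 libraries in the Ago2 ADH and 2 of 6 in the Dicer comparison were closest to their own number. The block changed no other call of a member. Over all transcripts, calls between Ago2 ADH and Ago2 null numbered 23, but 81 with DESeq2, 94 with no filter on low counts, 56 at an FDR of 5%, 11 with summed transcripts and 142 with the block. For the Ago2 ADH effect minus that of Dicer KO they numbered 692, but 1104 with DESeq2 and 1638 at 5%, and for Ago2 null 598, but 964, 1387 at 5%, 996 with no filter and 227 with the block. Where 1 Ago2 null library was left out, the remaining one was assumed to vary like the other groups. Ordering members by CPM in place of CPM per kb exchanged Oog1 and Gm2042 in every group. Depth cannot separate Oog1 from Gm2042, which hold 94.8% and 90.4% of their 50-base windows in common.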
